A study of Mus musculus with 6 samples.

Results

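The potassium channel genes described here are the mouse genes with a protein-coding transcript and a symbol that begins with Kcn. Of 54309 genes listed, 94 met this rule, and 65 of the 94 had enough counts to be tested. The RNA came from left sciatic nerves of C57BL/6 mice aged 6 to 8 weeks that had been severed at mid-thigh 24 h earlier (axotomy), and from the proximal stump alone, the side still joined to the cell bodies. The comparison was male against female: 3 libraries of axotomized males and 3 of axotomized females, each pooled from nerves of 2 mice, with no transgene or drug in either sex. No uninjured nerve was analysed here, so each value compares the sexes after injury and none is a response to injury. A stump holds cut axons, Schwann cells, fibroblasts, vessels and entering blood cells, and in such bulk tissue fewer cells of a type cannot be told apart from less RNA per cell.

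Potassium channels let potassium leave or enter a cell and so set its resting potential, end its action potentials and pace its firing. Voltage-gated channels are tetramers of alpha subunits (Kcna to Kcnd, Kcnh, Kcnq and the electrically silent Kcnf, Kcng, Kcns and Kcnv), inward rectifiers (Kcnj) and two-pore-domain channels (Kcnk) carry current near rest, and Kcnma, Kcnn and Kcnt channels open with calcium or sodium. Auxiliary subunits (Kcnab, Kcne, Kcnip and Kcnmb) change gating or surface delivery and form no pore of their own. In a myelinated peripheral nerve, Kcna1 and Kcna2 channels lie under the myelin beside the node of Ranvier.

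Every pore-forming subunit carries a selectivity filter, a short run of residues in each pore loop that strips water from potassium ions. The coding sequence around it is shown for 7 of the pore-forming genes that passed the threshold below, because it is the stretch in which channel genes resemble each other most and so where reads could be exchanged between them. Each line is 45 bases of the spliced coding transcript, 5′ to 3′, from GENCODE M39 on GRCm39. The 5 filter codons are in capitals and 15 bases stand on each side.
Kcnc1: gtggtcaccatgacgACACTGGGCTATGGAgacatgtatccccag
Kcnd2: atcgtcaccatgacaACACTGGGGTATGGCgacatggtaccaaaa
Kcnh2: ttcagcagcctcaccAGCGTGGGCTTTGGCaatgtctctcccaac
Kcnt1: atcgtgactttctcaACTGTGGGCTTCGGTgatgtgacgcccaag
Kcnj16: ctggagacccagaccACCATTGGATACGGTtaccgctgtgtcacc
Kcnk1, first pore loop: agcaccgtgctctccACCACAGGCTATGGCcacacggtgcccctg
Kcnk1, second pore loop: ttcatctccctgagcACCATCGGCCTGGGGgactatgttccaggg
Kcnk9, first pore loop: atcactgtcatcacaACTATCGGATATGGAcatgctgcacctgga
Kcnk9, second pore loop: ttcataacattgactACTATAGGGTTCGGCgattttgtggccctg

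These filters lie in coding exons. On the plus strand stand those of Kcnc1 at chr7:46077397-46077411, Kcnt1 at chr2:25784379-25784393, Kcnj16 at chr11:110915730-110915744 and the second loop of Kcnk1 at chr8:126752068-126752082. On the minus strand stand those of Kcnh2 at chr5:24530553-24530567 and the second loop of Kcnk9 at chr15:72384568-72384582. In Kcnd2 (chr6:21217405-21714140, plus strand) and in the first loops of Kcnk1 (chr8:126722547-126751758, plus strand) and Kcnk9 (chr15:72384886-72417852, minus strand) an intron splits the filter codons, so these intervals include it. Kcnc1 and Kcnd2 were identical at 34 of the 45 bases, the most of any 2 of the stretches shown. Some channel genes whose filters are not shown came closer to these. Kcnc1 and Kcnc4 shared 40 of the 45 bases, as did Kcnh2 and Kcnh6, and Kcnd2 and Kcnd3 shared 38.

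Beyond the filter these genes were largely distinct. Of the 4512 words of 31 bases in the Kcnc1 transcript, 1.24% also occurred, on either strand, in a transcript of another gene. For Kcnd2, Kcnt1, Kcnip1 and Kcnip2 the share was 0%. It was 0.297% for Kcnh2, 0.213% for Kcnk9 and 1.76% for Kcnj16. Kcnk1 (7.23%) shared more, nearly all of it with Gm45875, a noncoding gene annotated on the opposite strand.

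The libraries held 49158283 to 69848769 estimated counts, and the markers of the tissue were as labelled, with 10 myelinating Schwann cell genes summing to 15940 to 41839 TPM (transcript counts corrected for length and scaled to a fixed total per library) in every library. Libraries of both sexes held some counts of genes of the other sex. Male 1 had 193 counts of Xist, against 6 and 16 in males 2 and 3, and female 3 had 139 counts of Ddx3y, against 0 in females 1 and 2. Counts of potassium channel calls are therefore also given without these 2 libraries. Over all 18424 genes tested, 971 (5.27%) differed at an adjusted p under 0.1 in the quasi-likelihood test of edgeR, 702 of them (3.81%) higher in males and 269 (1.46%) higher in females. Among protein-coding genes alone these shares were 5.8%, 4.19% and 1.62%.

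Most of the potassium channel RNA came from a few genes. Of the 94 genes, 7 averaged 10 TPM or more, 24 averaged 1 to 10, 31 averaged 0.1 to 1, and 32 stayed under 0.1. The 5 most abundant took 61.1%, 57.2% and 60.8% of the summed TPM in males 1, 2 and 3, and 46.4%, 53.5% and 52.8% in females 1, 2 and 3. A count was present in all 6 libraries for 69 genes and in none for Kcnj1, Kcnk15 and Kcnk16. Summed over all 94 genes, the level was 348, 319 and 380 TPM in males 1, 2 and 3, against 269, 302 and 233 TPM in females 1, 2 and 3. Every male sum lay above every female sum, and the 11 genes called below accounted for 80.3, 75.9 and 97.7 TPM of the male sums and 39.7, 51.2 and 35.7 TPM of the female sums.

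**Figure D1:**
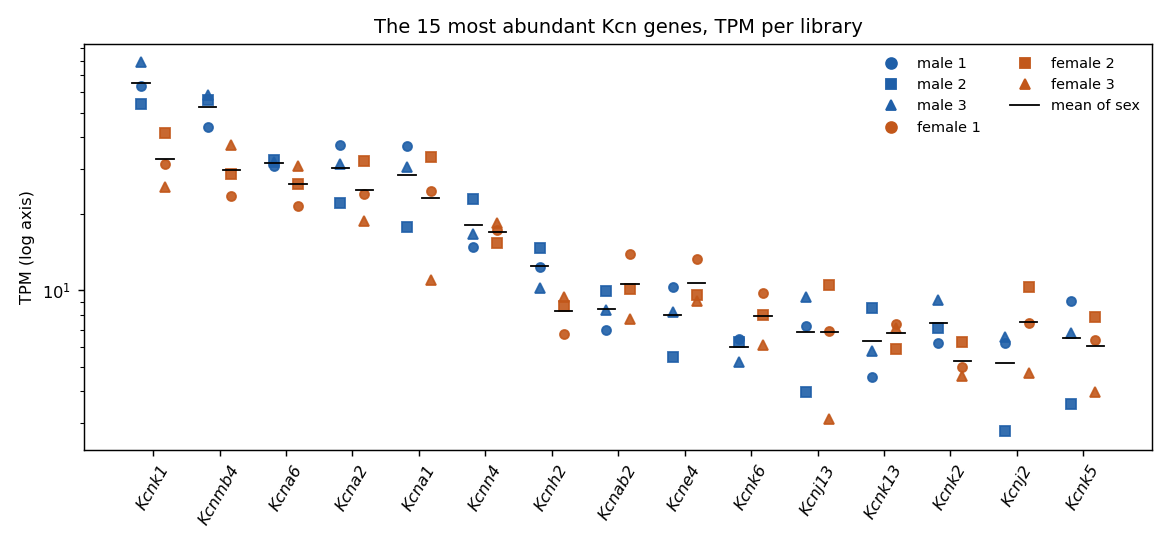
TPM on a log axis of the 15 most abundant potassium channel genes, with 1 point per library (3 males, 3 females) and a line at the mean of each sex. Kcnk1 is the most abundant and its male points (54.1 to 78.7 TPM) lie above its female points (25.4 to 41.3 TPM), while those of Kcna2 and Kcna1 overlap.

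Kcnk1, a two-pore channel of background current, was the most abundant of the family. It stood at 63.8, 54.1 and 78.7 TPM in males 1, 2 and 3, against 31.3, 41.3 and 25.4 TPM in females 1, 2 and 3. Second came Kcnmb4, the auxiliary beta subunit of neuronal calcium-activated channels, at 52.7 ± 7.90 TPM in males and 29.8 ± 6.90 TPM in females (SD, n = 3 each). The next 3 were the axonal Kcna genes. Kcna6 averaged 31.7 ± 0.948 TPM in males and 26.1 ± 4.68 TPM in females, Kcna2 30.3 ± 7.73 and 24.9 ± 6.84 TPM, and Kcna1 28.5 ± 9.80 and 23.0 ± 11.3 TPM. These 3 did not differ from each other beyond their spread within either sex, and together the 8 Kcna genes made up 22.9% to 30.5% of the family's TPM in the males and 26.5% to 30.96% in the females.

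Below them came Kcnn4, a calcium-activated channel best known from blood cells, at 18.1 ± 4.26 TPM in males and 17.0 ± 1.51 TPM in females, and Kcnh2, the channel of the delayed rectifier current that repolarizes the heart, at 12.4 ± 2.20 and 8.27 ± 1.38 TPM. The remaining 8 of the 15 averaged 6.28 to 9.49 TPM. They were Kcnab2, the beta subunit of Kcna channels, the auxiliary subunit Kcne4, the two-pore channels Kcnk6, Kcnk13, Kcnk2 and Kcnk5, and the inward rectifiers Kcnj13 and Kcnj2. Apart from the step between Kcne4 (mean 9.32 TPM) and Kcnk6 (6.96 TPM), neighbours in the order of means differed by less than their SD within either sex, and none of the 8 passed the test between the sexes.

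Of the 65 potassium channel genes tested, 11 (16.9%) differed between the sexes at an adjusted p under 0.1, against 5.27% of all genes, and all 11 were higher in males. Of these, 4 (Kcnd2, Kcnk9 and Kcnip1 among them) met the filter on low counts through the males alone, with all 3 males and no female at 0.18 CPM or more, and so had to differ to be tested. This route held for 0.66% of all genes tested, and without the genes that entered through 1 sex alone 7 of 61 (11.5%) passed, against 4.84% of all genes. With a minimum of 1 CPM in 3 libraries, 7 of the 11 were no longer called and 6 genes passed. The 9 described here were the voltage-gated alpha subunits Kcnc1, Kcnd2 and Kcnh2, the sodium-activated channel Kcnt1, the two-pore channels Kcnk1 and Kcnk9, the inward rectifier Kcnj16, and Kcnip1 and Kcnip2, calcium-binding partners of Kcnd channels. None passed higher in females, where edgeR found 1 gene (Kcna3) at an unadjusted p under 0.05, against 9.68% of all genes, and DESeq2 called 1 and limma-voom 0. In all, 20 of the 65 had an unadjusted p under 0.05, against 20.7% of all genes, and 19 of these were higher in males, against 11%. The CPM (counts divided by the normalized library size and scaled to a fixed total) of every male lay above those of every female in 22 of the 65, against 13.9% of all genes, and below them in 2, Kcnq1 and Kcnk6, against 11.5%, where 25.5% of all genes did not overlap in either direction. A log2 fold change above 0 was found in 43 of the 65, against 46.8% of all genes. The median log2 fold change, male minus female, was 0.29 over the 65 and -0.03 over all genes tested.

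The number of calls depended on single libraries, for potassium channels and for all genes alike. Without female 1, 0 of the 11 passed (adjusted p = 0.146 to 0.256, edgeR) and 1 of all genes did. Without male 3, when 7 of all genes passed, Kcnt1 was the only one of the 11 to pass (adjusted p = 0.0865 for Kcnt1, up to 0.282 for the others). Without female 2 there were 6 (327 over all genes), without male 2 6 (761), without male 1 13 (651) and without female 3 15 (2612). Without both male 1 and female 3 there were 16 (1989), of which 9 were among the 11. All 11 log2 fold changes stayed positive in each of the 6 fits that left out 1 library, with unadjusted p values of at most 0.0161 by edgeR. The 29 genes not tested entered no count of calls.

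**Figure D2:**
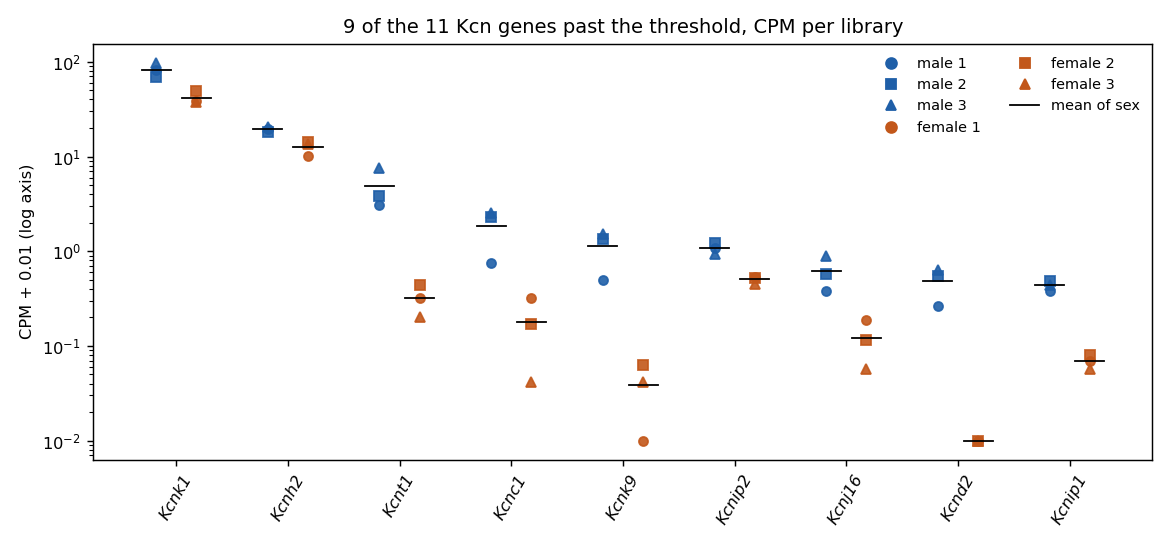
CPM plus 0.01, on a log axis, of 9 of the 11 potassium channel genes past the threshold, with 1 point per library and a line at the mean of each sex. Male and female points do not overlap in any of the 9, Kcnd2 lies at 0 CPM in all 3 females, and in 6 of the 7 genes shown with a male mean under 10 CPM male 1 is the lowest male.

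Of the voltage-gated alpha subunits, 27 of 40 genes were tested. Of these, 5 (18.5%) passed higher in males, against 3.81% of all genes, and 0 higher in females, against 1.46%. Kcnc1, which encodes a fast channel that lets neurons fire at high rates (ENSMUSG00000058975.8, chr7:46045674-46106392), was at 0.742, 2.29 and 2.50 CPM in males 1, 2 and 3, against 0.312, 0.160 and 0.0318 CPM in females 1, 2 and 3, a log2 fold change of 3.47 ± 0.73 (SE; adjusted p = 0.0650, edgeR). Male 1 was the lowest male and female 1 the highest female, and the sexes did not overlap. Kcnc2 (1.88 ± 0.53, adjusted p = 0.111, edgeR) and Kcnc4 (1.35 ± 0.92, adjusted p = 0.441, edgeR) had positive log2 fold changes that did not pass. They are named after their values were seen.

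Kcnd2 encodes a channel of the A-type current of neuronal dendrites, and Kcnip1 and Kcnip2 encode proteins that bind its amino terminus. Kcnd2 (ENSMUSG00000060882.6, chr6:21214866-21729804) was at 0.252, 0.532 and 0.624 CPM in males 1, 2 and 3, from 79 counts, against 0 counts in all 3 females. Set against a floor of 3 counts in each female library it was at least 8.83-fold higher in males (adjusted p = 0.0405, edgeR), and a floor covers counting error only. Kcnip1 (ENSMUSG00000053519.18, chr11:33576285-33943152) was at 0.371, 0.479 and 0.429 CPM in males 1, 2 and 3, against 0.0586, 0.0709 and 0.0477 CPM in females 1, 2 and 3, a log2 fold change of 2.81 ± 0.42 (adjusted p = 0.0347, edgeR). These rest on 74 counts in males and 10 in females. Kcnip2 (ENSMUSG00000025221.17, chr19:45780278-45804836) was at 1.07, 1.22 and 0.916 CPM in males 1, 2 and 3, against 0.527, 0.514 and 0.445 CPM in females 1, 2 and 3, a log2 fold change of 1.11 ± 0.27 (adjusted p = 0.0876, edgeR). The Kcnip2 call was lost with library size alone (adjusted p = 0.109) and with no filter on low counts (adjusted p = 0.104), both by edgeR, and over all its alternatives the adjusted p was 0.0465 to 0.256. The other Kcnd genes differed less. The X-linked Kcnd1 averaged 6.84 ± 1.051 CPM in males against 6.77 ± 0.417 CPM in females (SD, n = 3 each), a log2 fold change of 0.01 ± 0.16, and Kcnip3, the Kcnip gene of highest TPM, had a log2 fold change of -0.03 ± 0.19.

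Kcnq3, named after its values were seen, encodes a subunit of the channels of the M current, which damps repetitive firing. It was at 0.475, 1.03 and 0.936 CPM in males 1, 2 and 3, against 0.215, 0.408 and 0.159 CPM in females 1, 2 and 3, without overlap, and did not pass (1.63 ± 0.48, adjusted p = 0.122, edgeR).

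Kcnh2 (ENSMUSG00000038319.15, chr5:24524567-24556762) was the most abundant of the called voltage-gated genes and the one with the smallest fold. It was at 19.4, 18.1 and 20.6 CPM in males 1, 2 and 3, against 10.2, 14.1 and 13.6 CPM in females 1, 2 and 3, a log2 fold change of 0.62 ± 0.15 (adjusted p = 0.0875, edgeR). All males lay above all females. The call was lost with library size alone (adjusted p = 0.103) and with an offset for transcript length (adjusted p = 0.188), both by edgeR.

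The Kcna genes, the most abundant voltage-gated group, gave 0 calls among 5 tested of 8. Kcna2 was at 304, 189 and 253 CPM in males 1, 2 and 3, against 158, 223 and 170 CPM in females 1, 2 and 3 (log2 fold change 0.44 ± 0.20, adjusted p = 0.268, edgeR). Kcna1 was at 97.2, 46.1 and 76.1 CPM in males 1, 2 and 3, against 61.4, 80.3 and 32.6 CPM in females 1, 2 and 3 (0.33 ± 0.36, adjusted p = 0.634, edgeR). In both, male 2 was the lowest male and female 2 the highest female, so that these libraries ran against the means of their sexes. Kcna6 averaged 92.4 ± 7.62 CPM in males against 87.7 ± 12.2 CPM in females (SD, n = 3 each; log2 fold change 0.08 ± 0.13).

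Kcna3, the channel that controls calcium entry in T lymphocytes and is also made by macrophages, had the most negative log2 fold change of the 65, -2.52 ± 0.89 (adjusted p = 0.174, edgeR). It was at 0.401, 0.0886 and 0.175 CPM in males 1, 2 and 3, against 2.71, 0.992 and 0.223 CPM in females 1, 2 and 3. Female 3 lay below male 1, and without female 3 the gene passed higher in females (-3.02, adjusted p = 0.0583, edgeR), as it did by DESeq2 (adjusted p = 0.0214) and with no filter on low counts (adjusted p = 0.0886, edgeR). The macrophage list had the same order in females, with a summed 2826, 2334 and 1798 TPM in females 1, 2 and 3. In males it did not, at 1511, 2331 and 1383 TPM in males 1, 2 and 3, highest in male 2, where Kcna3 was lowest. A list of adipocyte genes likewise had this order in females alone, at 1327, 790 and 155 TPM in females 1, 2 and 3, against 104, 556 and 242 TPM in males 1, 2 and 3. The part of these cells in the Kcna3 values was not tested. The next most negative were Kcne3 (-0.90 ± 0.46), Kcnt2 (-0.65 ± 0.33), Kcnv1 (-0.57 ± 0.68) and Kcne4 (-0.56 ± 0.26), with adjusted p values of 0.271 to 0.673 by edgeR.

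**Figure D3:**
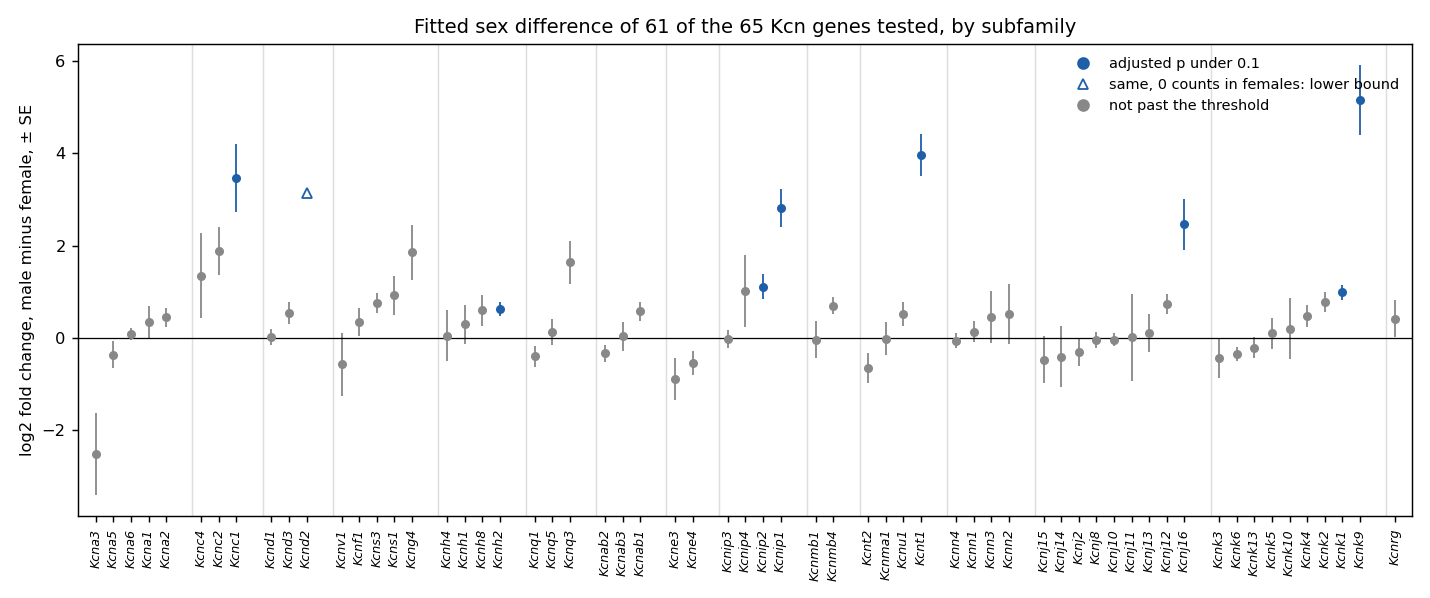
Fitted log2 fold change, male minus female, with its SE, of 61 of the 65 potassium channel genes tested, grouped by subfamily and sorted within it. The called genes shown are spread over Kcnc, Kcnd, Kcnh, Kcnip, Kcnt, Kcnj and Kcnk, Kcnd2 is drawn at its lower bound of 3.14, and Kcna3 is lowest at -2.52 without passing.

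Of the Kcnma, Kcnn, Kcnt and Kcnu genes, 8 of 8 were tested and 1 (12.5%) passed higher in males, against 3.81% of all genes. Kcnt1 (ENSMUSG00000058740.15, chr2:25753746-25809578), a sodium-activated channel that follows bursts of firing in neurons, was at 3.10, 3.83 and 7.53 CPM in males 1, 2 and 3, against 0.312, 0.425 and 0.191 CPM in females 1, 2 and 3, a log2 fold change of 3.96 ± 0.45 (adjusted p = 0.0323, edgeR). Its relative Kcnt2 was at 1.74, 1.61 and 2.63 CPM in males 1, 2 and 3, against 1.97, 4.15 and 3.28 CPM in females 1, 2 and 3, with a log2 fold change of the other sign and no call. Kcnn4 (-0.06 ± 0.16) and Kcnu1, a channel known from sperm (0.51 ± 0.26), did not pass. Of the 4 Kcnmb subunits of calcium-activated channels, 2 were tested. Kcnmb4 was at 30.5, 35.2 and 38.5 CPM in males 1, 2 and 3, against 17.7, 19.3 and 27.6 CPM in females 1, 2 and 3, so that every male lay above every female, and it fell just outside the threshold (0.69 ± 0.18, adjusted p = 0.103, edgeR).

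Of the inward rectifiers and two-pore channels, 18 of 29 were tested and 3 (16.7%) passed higher in males, against 3.81% of all genes. Kcnk1 (ENSMUSG00000033998.10, chr8:126721842-126757440) was at 82.5, 68.5 and 97.4 CPM in males 1, 2 and 3, against 38.6, 49.6 and 37.4 CPM in females 1, 2 and 3, a log2 fold change of 0.98 ± 0.16 (adjusted p = 0.0409, edgeR). It was the call with the most counts behind it, 14420 in males and 7125 in females. Kcnk9 (ENSMUSG00000036760.8, chr15:72372938-72419556), an acid-sensitive background channel of neurons, was at 0.490, 1.33 and 1.52 CPM in males 1, 2 and 3, against 0, 0.0532 and 0.0318 CPM in females 1, 2 and 3. Its log2 fold change of 5.15 ± 0.76 (adjusted p = 0.0347, edgeR) rests on 186 counts in males and 5 in females. Kcnj16 (ENSMUSG00000051497.16, chr11:110858843-110927617), which forms channels with Kcnj10 in glia and kidney, was at 0.371, 0.567 and 0.877 CPM in males 1, 2 and 3, against 0.176, 0.106 and 0.0477 CPM in females 1, 2 and 3, a log2 fold change of 2.46 ± 0.55 (adjusted p = 0.0750, edgeR). Kcnj10 itself, named after its values were seen, did not pass, with a mean of 17.4 ± 2.39 CPM in males against 17.99 ± 2.00 CPM in females (SD, n = 3 each; log2 fold change -0.04 ± 0.15).

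The other abundant two-pore channels split by direction. Kcnk2, a channel opened by stretch and warmth, was at 12.96, 12.8 and 18.4 CPM in males 1, 2 and 3, against 7.21, 10.6 and 7.95 CPM in females 1, 2 and 3, and did not pass (0.78 ± 0.21, adjusted p = 0.104, edgeR). Kcnk6, whose efflux of potassium in macrophages feeds inflammasome activation, was at 18.1, 17.8 and 14.3 CPM in males 1, 2 and 3, against 25.03, 20.2 and 18.8 CPM in females 1, 2 and 3, each male below each female (-0.35 ± 0.16, adjusted p = 0.251, edgeR). Kcnk13, known from microglia (-0.22 ± 0.23), and Kcnk5 (0.09 ± 0.34) overlapped between the sexes, as did the inward rectifiers Kcnj2 (-0.32 ± 0.30) and Kcnj13 (0.11 ± 0.42).

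Of the auxiliary subunits, 11 of 16 were tested and Kcnip1 and Kcnip2 (18.2%) passed higher in males, against 3.81% of all genes. Kcnab2 averaged 22.7 ± 3.67 CPM in males against 28.7 ± 6.20 CPM in females (SD, n = 3 each), and Kcne4 at 12.8 ± 4.24 and 18.8 ± 3.98 CPM, neither past the threshold. The highest silent subunit, Kcns3, was at 7.36, 6.68 and 9.22 CPM in males 1, 2 and 3, against 4.45, 5.71 and 3.69 CPM in females 1, 2 and 3, without overlap and without a call (0.75 ± 0.21, adjusted p = 0.116, edgeR).

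Among the 29 genes not tested, 2 had 10 or more counts in males and none in females. Kcnj6, an inward rectifier coupled to G proteins, had 19 counts in males against 0 in females, which by the same floor is at least 2.02-fold higher. Kcnh5 had 12 counts against 0, at least 1.34-fold higher by the male mean. Its counts were 2, 6 and 4 in males 1, 2 and 3, so that male 1 lay under the floor of 3 counts. Kcns2 had 24 counts in males and 1 in females, a ratio of 23.4 (exact 95% interval 3.81 to 961), Kcng1 13 and 1, a ratio of 12.7 (1.90 to 538), and Kcnk12 17 and 2, a ratio of 8.28 (1.97 to 73.9). In males 1, 2 and 3, Kcns2 had 0, 13 and 11 counts, Kcng1 3, 8 and 2, and Kcnk12 5, 2 and 10. The sexes overlapped in Kcns2, with 0 counts in male 1 and 1 in female 3. Intervals cover counting error only and pool the libraries of a sex, and these 3 are named after their values were seen.

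The low and the high calls differed in the order of the male libraries. In the 9 called genes with a male mean under 10 CPM, male 1 was the lowest male in 8, all but Kcnip2, whereas male 1 was lowest in 31.1% of all genes tested and in 45.0% of the 702 genes called higher in males. Genes used as markers of cells of the central nervous system, cells that a sciatic nerve should hardly hold, were also measured. Beside their counts of calls stands the share of all genes tested that passed higher in males, 3.81%. The summed level of 9 oligodendrocyte genes was 8.21, 19.8 and 21.1 TPM in males 1, 2 and 3, against 3.31, 5.24 and 4.31 TPM in females 1, 2 and 3, with male 1 the lowest male, and 4 of its 7 tested genes passed higher in males. The 10 central neuron genes summed to 50.2, 49.4 and 67.0 TPM in males 1, 2 and 3, against 29.5, 34.4 and 30.1 TPM in females 1, 2 and 3, and 7 of 10 passed higher in males. That sum is mostly Stmn2 and Snap25, which axons of a nerve also carry, and the low sum in male 2 came from Stmn2 (33.8, 21.4 and 34.4 TPM in males 1, 2 and 3, against 21.6, 27.04 and 20.8 TPM in females 1, 2 and 3). In CPM male 1 was the lowest male in the other 9 genes. Of 8 astrocyte genes 4 passed higher in males (Aqp4, Slc1a2, Gjb6 and Slc6a11) and the other 4 had log2 fold changes below 0 and did not pass, at -0.31 for Slc1a3, -0.19 for Gja1, -0.07 for Gfap and -0.01 for Aldh1l1. The list's sum overlapped, at 101, 85.6 and 94.0 TPM in males 1, 2 and 3 against 112, 99.0 and 93.0 TPM in females 1, 2 and 3. Gja1 was the largest part of that sum, at 62.8, 42.2 and 46.3 TPM in males 1, 2 and 3 against 72.1, 58.9 and 53.7 TPM in females 1, 2 and 3. The sum therefore mainly follows genes abundant in both sexes and says little about those that passed.

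Values of single markers, chosen after they were seen, were as follows. Mobp, of central myelin, was at 6.32, 18.4 and 19.4 CPM in males 1, 2 and 3, against 0.449, 0.709 and 0.620 CPM in females 1, 2 and 3. Aqp4, of astrocytes and one of the 4 of its list that passed, was at 1.45, 4.13 and 4.602 CPM in males 1, 2 and 3, against 0.0195, 0.0709 and 0.0318 CPM in females 1, 2 and 3. Ermn was at 0 in all females and Mog at 0 in females 1 and 2. The oligodendrocyte list was not uniform. Its tested genes Opalin (log2 fold change 1.27 ± 0.82), Myrf (0.40 ± 0.27) and Cldn11 (0.51 ± 0.33) overlapped between the sexes and did not pass. In Kcnc1, Kcnk9 and Kcnd2, as in Mobp and Aqp4, male 1 lay well below males 2 and 3. Not every low call did so. In males 1, 2 and 3, Kcnt1 was at 3.10, 3.83 and 7.53 CPM and Kcnip1 at 0.371, 0.479 and 0.429 CPM. In Kcnip2 male 3 was the lowest male. The part of cells of the central nervous system in the channel values was not tested. Sensory neuron genes, which axons of the nerve carry, summed to 37.3, 43.8 and 50.2 TPM in males 1, 2 and 3, against 24.5, 23.4 and 29.8 TPM in females 1, 2 and 3. Of these, 3 of 8 tested genes passed the threshold higher in males, against 3.81% of all genes. Of the motor neuron genes, Prph was the 1 tested of 5, and Mnx1 had 0 counts in every library.

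Kcnk1 and Kcnh2, the called genes over 10 CPM, had another order. In CPM they were lowest among males in male 2 and highest in male 3, and so, in TPM, was the myelinating Schwann cell list, at 38298, 34552 and 41839 TPM in males 1, 2 and 3, against 15940, 20912 and 18321 TPM in females 1, 2 and 3. In TPM Kcnk1 kept that order, but Kcnh2, at 12.4, 14.6 and 10.2 TPM in males 1, 2 and 3, against 6.73, 8.70 and 9.38 TPM in females 1, 2 and 3, was highest in male 2 and lowest in male 3, the reverse of the list. Among females Kcnk1 was lowest in female 3, and Kcnh2 and the list in female 1. In CPM male 2 was the lowest male in 36.4% of all genes tested and in 50.3% of the 702 called higher in males. Male 3 was the highest male in 500 of these 702. Of the list's 10 genes 5 passed higher in males, against 3.81% of all genes tested. The 4 genes of nonmyelinating Schwann cells gave 0 calls, at 156, 135 and 163 TPM in males 1, 2 and 3 against 146, 208 and 97.3 TPM in females 1, 2 and 3. The part of Schwann cell content in the Kcnk1 and Kcnh2 values was not tested.

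**Figure D4:**
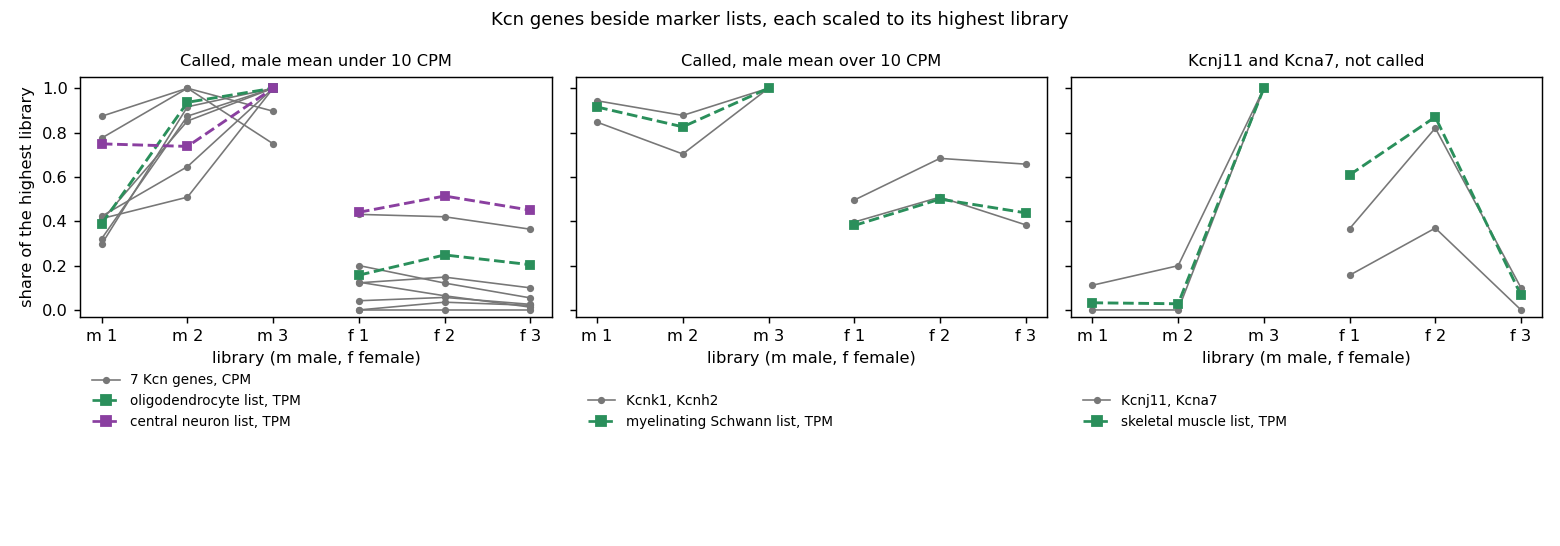
Potassium channel genes (CPM, grey) and summed marker lists (TPM, dashed) in each library, each scaled to its own highest library, with males (m) left of females (f). The left panel holds 7 of the called genes with a male mean under 10 CPM, the middle panel Kcnk1 and Kcnh2, and the right panel Kcnj11 and Kcna7, which peak in male 3 with the skeletal muscle list and were chosen after their values were seen.

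Kcnj11 and Kcna7, 2 channels of muscle chosen after their values were seen, differed more within a sex than between the sexes. Kcnj11, the pore of the ATP-sensitive channel of muscle, was at 0.0891, 0.160 and 0.799 CPM in males 1, 2 and 3, against 0.293, 0.656 and 0.0795 CPM in females 1, 2 and 3. Kcna7, a muscle channel that was not tested, was at 0, 0 and 0.624 CPM in males 1, 2 and 3, against 0.0976, 0.230 and 0 CPM in females 1, 2 and 3. Both were high in male 3 and in females 1 and 2, the libraries in which the 12 skeletal muscle genes summed to 575, 350 and 500 TPM, and low in males 1 and 2 and in female 3, where these summed to 18.6, 16.02 and 38.2 TPM. The silent subunit Kcnv1 was high in the same libraries. It was at 0.0742, 0.0886 and 0.234 CPM in males 1, 2 and 3. In females 1, 2 and 3 it was at 0.332, 0.177 and 0.0795 CPM. The inward rectifiers Kcnj2 and Kcnj12 did not share this pattern. In males 1 and 3, Kcnj2 was at 20.2 and 21.2 CPM and Kcnj12 at 10.4 and 7.25 CPM. Another 14 tested genes, among them Kcna1, Kcnj2, Kcnj13, Kcnk5 and Kcns3, were lowest among males in male 2 and lowest among females in female 3. This joint order held for 17.2% of all genes tested.

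The reads of some genes were assigned to transcripts that encode no full protein. Over the 64 tested genes with 60 counts or more, 47 had 95% or more of their counts on protein-coding transcripts and 4 had under 50%, namely Kcna6, Kcnn3, Kcnab1 and Kcnt1. Kcnn3 and Kcnab1 are named after their values were seen. For Kcna6, Kcna6-201, annotated as a target of nonsense-mediated decay and 5827 bases long, took 77.5%, 64.0% and 71.8% of the counts in males 1, 2 and 3 and 89.4%, 86.6% and 74.0% in females 1, 2 and 3. Protein-coding transcripts took at most 4.13% in any library, although Kcna6-204, which is coding, has nearly the same length of 5836 bases. Kcna6 also shares 40.2% of its words of 31 bases with the opposite-strand gene Gm26673. The library kit preserved strand, but whether the quantification used it is not given in the sources used here.

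For Kcnt1, transcripts with a retained intron held 55.4%, 56.2% and 45.2% of the counts in males 1, 2 and 3, against 34.9%, 47.5% and 0% in females 1, 2 and 3. Its coding transcript Kcnt1-201 had 93.3, 85.5 and 148 estimated counts in males 1, 2 and 3, against 10.4, 12.6 and 12.0 in females 1, 2 and 3. For Kcnk2, Kcnk2-203, a decay target, had 267, 259 and 395 counts in males 1, 2 and 3, against 113, 218 and 88.4 in females 1, 2 and 3. Kcnh2 was 87.9% to 98.6% protein-coding in males and 87.6% to 92.5% in females, carried mostly by Kcnh2-202. When genes were summed over protein-coding transcripts alone, an alternative chosen after seeing the data, 11 genes again passed, 10 of them the same, with Kcnip2 lost (adjusted p = 0.104, edgeR) and Kcnmb4 gained (adjusted p = 0.0907, edgeR). Kcnmb4 shares 75.0% of its words with other genes, most of them with the opposite-strand Kcnmb4os2.

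**Figure D5:**
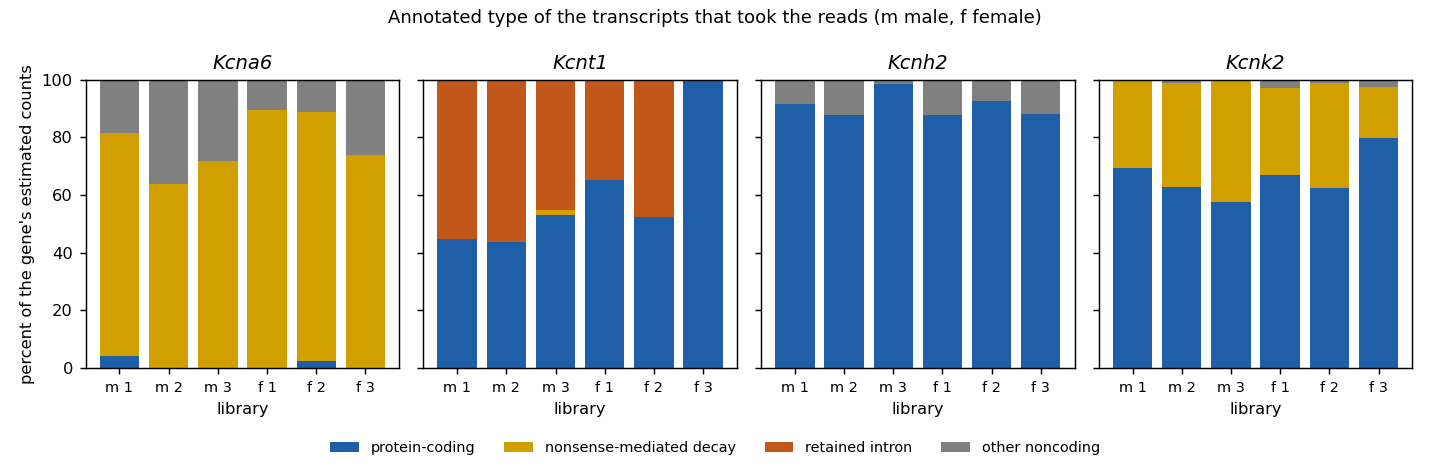
Percent of each gene's estimated counts by the annotated type of the transcript they were assigned to, per library, with males (m) left of females (f). Kcna6 counts sit almost wholly on decay-target and other noncoding transcripts in all 6 libraries, and retained introns hold 45.2% to 56.2% of Kcnt1 counts in males.

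Of the 94 genes, 9 pairs lie within 100 kb of each other, and in none of these pairs did both genes pass. Several pairs hold a gene that was not tested and so could not both pass. These are Kcnj9 and Kcnj10, Kcnk5 and Kcnk16, Kcne2 and Kcne1, Kcna2 and Kcna10, and Kcnj5 and Kcnj1. Pairs described here were chosen after their values were seen. Kcnj16 passed and Kcnj2, 29.4 kb downstream on the same strand of chromosome 11, did not, with log2 fold changes of 2.46 and -0.32. Kcna2 (0.44) and Kcna3 (-2.52) stand 62.9 kb apart on chromosome 3. Kcnip1 spans Kcnmb1, which lies on the other strand and had a log2 fold change of -0.04 ± 0.40. Kcnj9 and Kcnj10 are 5.20 kb apart on chromosome 1, with 58 against 7 counts for Kcnj9, which was not tested, and levels of Kcnj10 that overlapped between the sexes.

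Proteins that hold, regulate or counteract these channels gave 8 calls among 39 genes tested (20.5%, against 5.27% of all genes), all higher in males, where 3.81% of all genes were. Of 16 partners of voltage-gated channels, 2 (12.5%) passed higher in males. Cntn2, an adhesion molecule that anchors Kcna channels beside the node, was at 0.994, 2.59 and 2.22 CPM in males 1, 2 and 3, against 0.195, 0.248 and 0.270 CPM in females 1, 2 and 3 (log2 fold change 3.00 ± 0.42, adjusted p = 0.0347, edgeR). Dpp6, a subunit of Kcnd channels, was at 1.99, 2.45 and 3.12 CPM in males 1, 2 and 3, against 0.527, 0.603 and 0.827 CPM in females 1, 2 and 3 (1.94 ± 0.29, adjusted p = 0.0347, edgeR). All males lay above all females for both, and Cntnap2, the axonal partner of Cntn2, had a positive log2 fold change of 1.97 ± 0.51 that did not pass (adjusted p = 0.101, edgeR). The scaffold Dlg4 (0.02 ± 0.13) and the node organizer Ank3 (-0.00453 ± 0.158) lay near 0.

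Of 4 Hcn genes, whose channels carry sodium and potassium and open on hyperpolarization, Hcn2 passed higher in males (0.98 ± 0.20, adjusted p = 0.0597, edgeR). Hcn4 overlapped between the sexes, at 115, 24.1 and 72.9 CPM in males 1, 2 and 3, against 74.7, 126 and 59.5 CPM in females 1, 2 and 3. Of 12 sodium pump genes tested, which return potassium to the cell, the beta subunits Atp1b1 (1.94 ± 0.48) and Atp1b2 (0.59 ± 0.15) and the regulators Fxyd1 (0.55 ± 0.10) and Fxyd6 (0.94 ± 0.19) passed higher in males, with adjusted p values of 0.0459 to 0.0920 by edgeR. Of 5 cation-chloride cotransporters tested, Slc12a5, the neuronal potassium-chloride exporter, passed higher in males, at 3.13, 5.62 and 5.87 CPM in males 1, 2 and 3, against 1.64, 1.24 and 0.859 CPM in females 1, 2 and 3 (1.97 ± 0.34, adjusted p = 0.0424, edgeR). Neither of the 2 tested partners of ATP-sensitive and calcium-activated channels passed.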

How the data were processed

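Nerve RNA from 3 male and 3 female pools was sequenced as paired-end stranded poly-A libraries, and groups were the sex given by the labels. The submitters' processing notes name Trimmomatic 0.39, Salmon 1.5.2 and MultiQC 1.9. The authors deposited, per transcript, the estimated count from Salmon (not normalized) and TPM, which the authors' quantification corrects for effective length and scales to a fixed total. Of the genes, 98.9% were found in GENCODE M39 on GRCm39, the source of coordinates. Estimated counts were summed per gene and rounded. In R 4.3.3, edgeR 4.0.16 filtered genes (filterByExpr), normalized by TMM and fitted the quasi-likelihood test with sex as the only term, with Benjamini-Hochberg adjustment over all genes tested and a threshold of 0.1. The SE is the log2 fold change divided by the square root of F. DESeq2 1.42.0 and limma 3.58.1 gave alternatives. On data simulated from this comparison (18424 genes) 53% of the 100 genes given a 2-fold difference and 87% of the 100 given a 4-fold one were found again, beside 21 false calls. P-values measure the spread between pools. Library copies were looked for and none was found. Filter sequences were located with Biopython 1.88 by translating each gene's canonical coding transcript.

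Genes were named by rule: those called, the 15 of highest TPM, the highest of each subfamily, those at 0 in 1 sex with 10 or more counts in the other, the 5 extremes of fold change in each direction and tested X-linked genes. Other genes, those just outside the threshold and those of counts of 5 or fewer included, were named after their values were seen. Members, lists and tests were chosen with earlier results of these data known. Some genes that the rule names are not reported here, though they remain in the counts.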

Additional observations from a re-analysis of the deposited data

Results flagged for a closer look

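A signal appeared in 2 genes that carry the Kcn symbol but encode no protein and so entered none of the counts above. Kcnq1ot1, the long antisense RNA of the Kcnq1 locus, had 1247, 1219 and 977 estimated counts in males 1, 2 and 3, against 820, 1169 and 999 in females 1, 2 and 3, so that its lowest library held 820 counts. Kcnmb4os2, antisense to Kcnmb4, had 62, 82 and 79 counts in males 1, 2 and 3, against 47, 49 and 109 in females 1, 2 and 3, with a lowest library of 47 counts. Both lay above a floor of 3 counts in every library. The groups of 3 libraries are too small for an outlier test.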

How the results depend on the processing

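The 11 potassium channel genes higher in males numbered 6 (284 over all genes) at an adjusted p under 0.05, 19 with DESeq2 (20 in both directions, 2397 over all genes), 19 with no filter on low counts (20 in both directions, 1617 over all genes) and 6 with a minimum of 1 CPM in 3 libraries. DESeq2 and the fit with no filter each called 1 gene higher in females, Kcna3, against 0 by edgeR with the filter. Leaving out 1 library at a time, the count of potassium channel genes ranged from 0 to 15, that higher in males from 0 to 13, that higher in females from 0 to 2, that over all genes from 1 to 2612, and the median log2 fold change from 0.18 to 0.51. Without both male 1 and female 3, chosen after seeing the data, 16 passed, 15 higher in males and 1 higher in females (1989 over all genes). With the replicate number as a block 2 genes passed, Kcnk9 and Kcnt1 (56 over all genes, adjusted p = 0.0765 to 0.205 for the 11, edgeR). The numbers share nothing but a name in the labels, and deviations of libraries with the same number correlated at -0.04, -0.30 and -0.29 across genes, which are not independent, so they were not treated as pairs. Other normalizations, limma-voom, a length offset, protein-coding genes alone and sums over protein-coding transcripts gave 9 to 14 genes, and in no alternative did a named gene past the threshold reverse. The cause of these changes was not tested. Values under 1 CPM rest on few counts, 5 over all 3 females for Kcnk9 and 0 for Kcnd2.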
